A study of Mus musculus with 2 samples.

Results

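The Gimap genes (GTPases of immunity-associated proteins) were examined for called intervals in the Myc-Tag Dlx5 ChIP-seq of a Lck-Dlx5 T-cell lymphoma. The set comprised all 8 member genes Gimap8, Gimap9, Gimap4, Gimap6, Gimap7, Gimap1, Gimap5 and Gimap3, in their order along chromosome 6, of 21887 protein-coding genes in the RefSeq table of GRCm38, the assembly known as mm10. Intervals were taken from the cluster, which runs from the lower end of Gimap8 to the higher end of Gimap3 (chr6:48647186-48770851, 123.7 kb), and from the 50 kb on either side. Of 3477 Myc-Tag intervals in all, 2 lay in this window.

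The Myc-Tag library came from a mouse T-cell lymphoma on a C57BL/6 background, in which the Lck promoter drives a Myc-Tag Dlx5 transgene in thymocytes. Chromatin was immunoprecipitated with a Myc-Tag antibody in order to recover the product of the transgene, and called intervals mark regions of enriched DNA. No Myc-Tag ChIP of cells without the transgene was among the libraries. Enrichment that does not depend on the tagged protein was therefore not told apart. The other library was an input of the same kind of lymphoma, whose strain label reads C57BL/7. The labels describe a primary tumor and an input, whereas the methods name a single Lck-Dlx5 cell line and an IgG control. There was 1 library of each kind, so no value has a replicate check and no test between conditions was possible. The read totals were not analysed here, the depth is therefore unknown, and the height of a summit is a score without a stated normalization.

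Gimap proteins are small GTP-binding proteins expressed mainly in lymphocytes, and their genes lie side by side as products of tandem duplication. Several of them set the balance between survival and death of T cells. Gimap5 is required for the survival of peripheral T cells, and its loss causes lymphopenia in rats and mice. Gimap3 is its close paralog and has also been tied to T-cell survival. Gimap1 is needed for mature T and B cells, Gimap4 is linked to T-cell apoptosis, and Gimap6 to autophagy. Gimap7 can stimulate GTP hydrolysis by partner proteins.

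No Gimap gene carried a Myc-Tag interval in its body or within 1 kb of it. Among all protein-coding genes, 13.4% had an interval in the body and 14.2% had one in the body or within 1 kb. A count of 0 of 8 allows a share of up to 37.5% when 3 counts are set as the limit for a count of 0, so it is not distinguishable from these backgrounds. Both intervals of the window lay outside genes, on the upstream side of Gimap1 and of Gimap3, and neither overlapped any annotated gene, coding or noncoding. Intervals that overlapped no annotated gene made up 14.0% of all Myc-Tag intervals. The interval at chr6:48732709-48733301 lay between Gimap7 and Gimap1. Its summit at 48733088 was 5959 bp upstream of the start of Gimap1, the nearest gene, and 8452 bp beyond the downstream end of Gimap7. The interval at chr6:48771994-48772421 lay just outside the cluster. Its summit at 48772128 was 1277 bp upstream of the start of Gimap3, which is transcribed from the minus strand towards the interior of the cluster. The next coding gene to this summit was Gimap5, at 17928 bp.

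**Figure D1:**
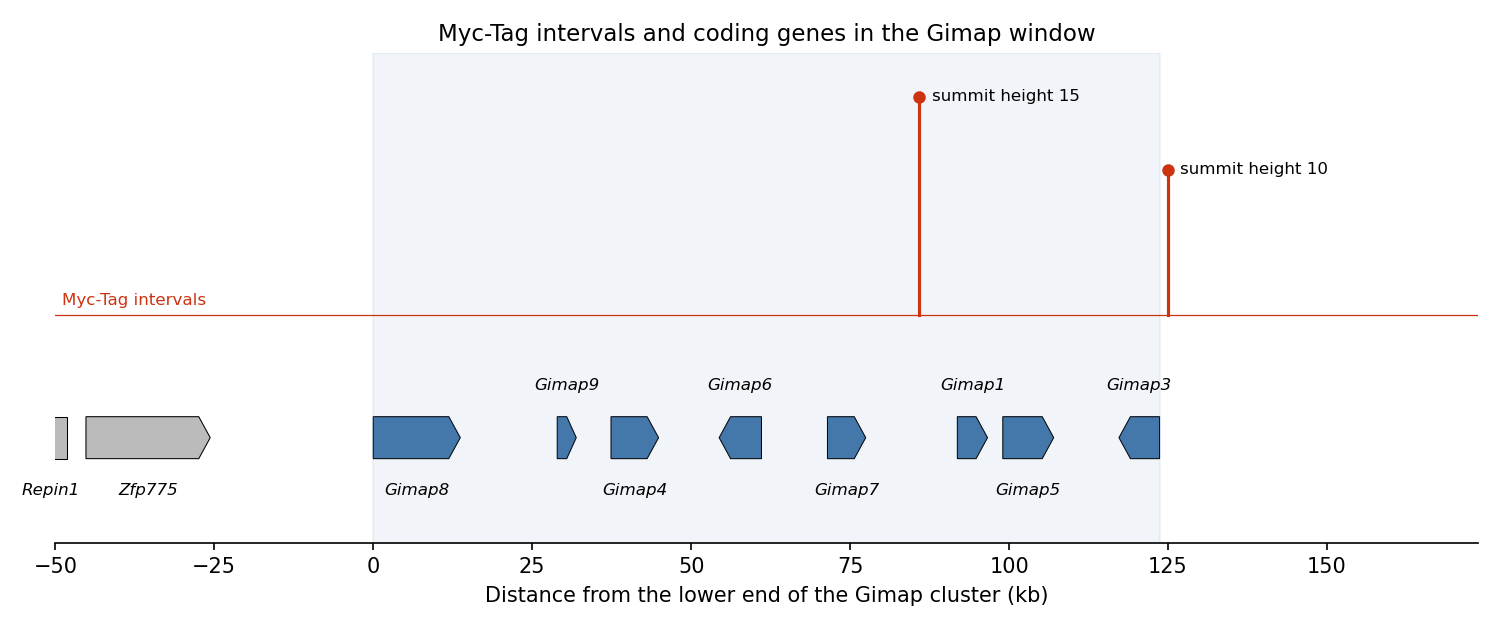
Coding genes of the Gimap window (blue, Gimap genes, grey, other genes, arrowheads point in the direction of transcription, and Repin1 is cut at the edge with no direction drawn) against distance in kb from the lower end of the cluster, which is shaded. Red stems mark the 2 Myc-Tag summits and rise in proportion to their heights of 15 and 10, the taller one between Gimap7 and Gimap1 and the other beyond Gimap3.

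The stretch before each start was read from the RefSeq promoter table (GRCm38.p6), since the intervals themselves lie outside it and genome sequence was not used here. All 8 Gimap genes were found in that table, with 9 windows of 300 bases because Gimap8 has 2 starts. The sequences of Gimap1 and Gimap3 are shown as those next to an interval, and that of Gimap6 as the one that holds TAATT, the core bound by proteins of the Dlx family. Each is the 250 bases before the start, 5' to 3' on the strand of the gene, with any TAATT or its reverse complement AATTA in capitals. They lie at chr6:48738797-48739046 on the plus strand (Gimap1), chr6:48770852-48771101 on the minus strand (Gimap3) and chr6:48708245-48708494 on the minus strand (Gimap6).
Gimap1: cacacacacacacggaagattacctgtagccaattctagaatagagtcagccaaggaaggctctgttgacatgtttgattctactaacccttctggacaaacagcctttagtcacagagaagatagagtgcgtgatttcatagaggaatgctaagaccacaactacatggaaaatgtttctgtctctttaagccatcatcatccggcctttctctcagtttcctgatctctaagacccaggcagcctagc
Gimap3: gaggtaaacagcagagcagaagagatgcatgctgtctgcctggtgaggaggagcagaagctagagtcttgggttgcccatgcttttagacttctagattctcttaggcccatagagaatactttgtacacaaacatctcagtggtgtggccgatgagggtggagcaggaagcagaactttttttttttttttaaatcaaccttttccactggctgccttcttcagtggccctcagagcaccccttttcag
Gimap6: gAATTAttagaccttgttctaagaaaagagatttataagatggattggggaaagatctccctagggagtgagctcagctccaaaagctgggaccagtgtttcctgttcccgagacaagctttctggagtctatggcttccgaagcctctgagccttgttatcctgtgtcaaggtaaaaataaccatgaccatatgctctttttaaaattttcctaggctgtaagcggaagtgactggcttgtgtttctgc
The search covered TAATT and AATTA, which overlap in TAATTA, on both strands of all 300 bases. Gimap6 held the motif once, as AATTA beginning 249 bases before its start, and the windows of Gimap1, Gimap3 and the other members held none. Thus 1 of 9 Gimap windows contained these letters, beside 27.0% of the 32851 windows of the table. The GC content of the Gimap windows was 43.3 to 57.3%, and among all windows in that range 27.8% held the motif. A match is only a description of the letters, and windows without one say nothing of Dlx5. The start of Gimap6, the gene with the motif, was 24.8 kb from the nearest Myc-Tag summit.

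The members thus differed in how far they lay from a called summit. Gimap3 was the closest, at 1.28 kb from its body. Gimap1 followed at 5.96 kb, Gimap7 at 8.45 kb and Gimap5 at 13.1 kb. The genes of the lower side of the cluster were more distant, with Gimap6 at 24.8 kb, Gimap4 at 41.0 kb, Gimap9 at 54.0 kb and Gimap8 at 72.2 kb. The distances of all but Gimap3 refer to the same summit, that of height 15 between Gimap7 and Gimap1, so that the members are not independent of each other. That of Gimap3 rests on the summit of height 10. The strand also set apart the neighbours of that shared summit, as it was upstream of Gimap1, Gimap5 and Gimap6 and downstream of the start of Gimap7, Gimap4, Gimap9 and Gimap8.

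With 10 kb allowed around each gene body, Gimap1, Gimap3 and Gimap7 were the genes reached by at least 1 bp of an interval, 3 of the 8 members (37.5%, exact Clopper-Pearson 95% interval 8.52 to 75.5%). The corresponding share of all protein-coding genes was 19.0%, and it was 17.9% on chromosome 6 and 19.6% among the 6191 genes as long as the Gimap genes (3.0 to 13.7 kb). The confidence interval of the Gimap share includes all of these shares. Gimap1 and Gimap7 shared 1 interval, so the 3 genes stand for 2 intervals. Of all runs of 8 neighbouring autosomal coding genes, 26.9% had at least 3 genes with an interval by this rule. Confidence intervals cover counting error only. In the input, 0 of the 8 members had an interval, beside 0.0731% of all coding genes, and the nearest of the 2 input intervals on chromosome 6 was 45.5 Mb away.

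A position right at a gene end is where Myc-Tag summits were most common. Of all 3477 summits, 58.4% lay within 1 kb of either end of a coding gene, and 10.8% of coding genes had such a summit. Gimap genes with a summit this close numbered 0 of 8, which again allows a share of up to 37.5%. The count of 0 of 8 is therefore not distinguishable from the background of 10.8%. Runs of 8 neighbouring coding genes with no interval in or within 1 kb of any of them, a count added after seeing the data, made up 39.3% of all runs. The summits near Gimap1 and Gimap3 fell in the class that lay between 1 and 10 kb from the nearest coding gene end, which held 715 summits (20.6%).

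Both Gimap summits were low to middling in height. That upstream of Gimap1 had a height of 15, which 1739 of the 3477 Myc-Tag summits exceeded and 1393 (40.1%) did not reach, while 345 summits had the same value. That upstream of Gimap3 had a height of 10, close to the lowest height called, 9. It was exceeded by 3367 summits (96.8%), and 16 (0.46%) were lower. For comparison, the median height was 15 on chromosome 6 (interquartile range 13 to 17) and 15 on the autosomes other than chromosome 15, which was left out because it held more intervals, 0.253 per 100 kb against 0.136. The paper lists a gain of chromosome 15 in every Lck-Dlx5 lymphoma line that it karyotyped, and the part of this gain in the counts was not tested. Among the 715 summits between 1 and 10 kb from a coding gene end, the median was also 15 (13 to 19), and 3.36% had a height of 10 or less. The Gimap3 summit thus belonged to the lowest part of that class, whereas the Gimap1 summit stood at its middle.

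The widths followed the same order. The interval near Gimap1 was 593 bp wide, and 22.2% of all Myc-Tag intervals were narrower. The interval near Gimap3 was 428 bp wide, and 3.51% were narrower. The median width was 752 bp in the library and 699 bp in the class between 1 and 10 kb from a coding gene end. Neither interval was called in the input, as was the case for all but 28 of the 3477 Myc-Tag intervals. With a single library, the difference in height and width between the Gimap1 and Gimap3 intervals has no error.

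**Figure D2:**
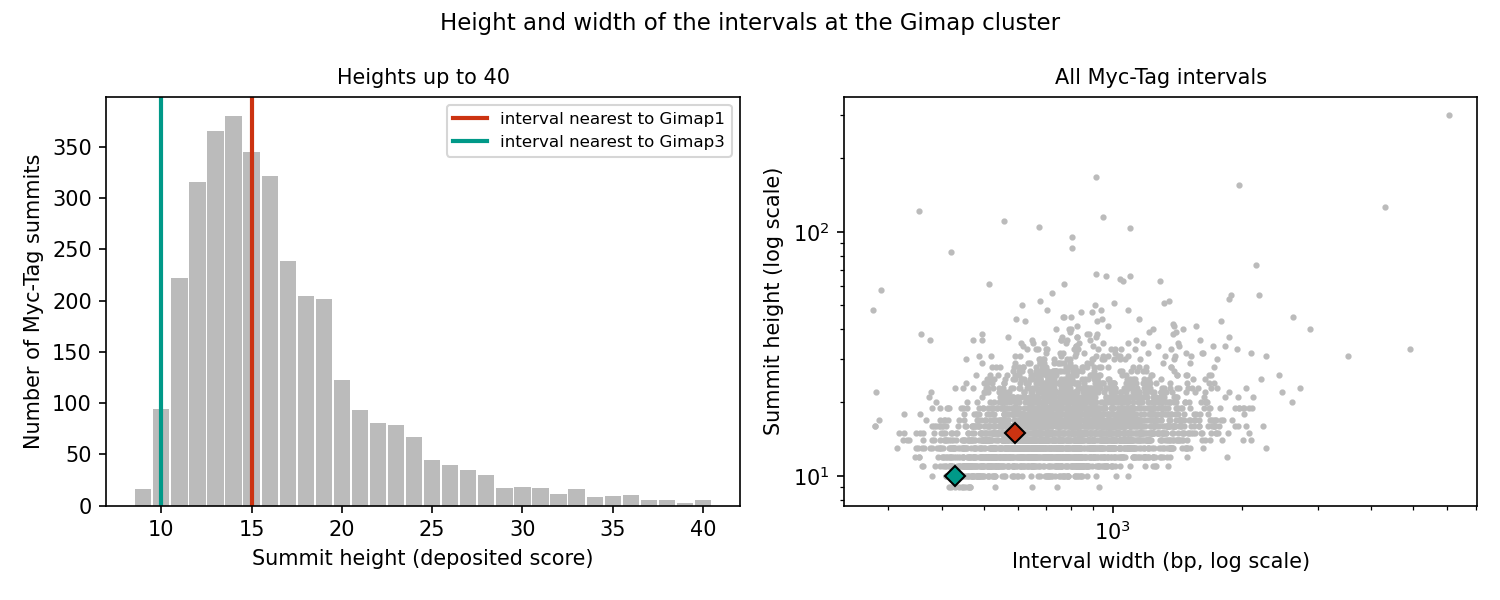
Left, number of Myc-Tag summits at each deposited height up to 40, with lines at the height of the interval nearest to Gimap1 (15) and to Gimap3 (10). Right, width against height of all Myc-Tag intervals on log scales, in which the Gimap3 interval lies in the corner of low and narrow intervals and the Gimap1 interval at middle height.

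The intervals at Gimap1 and Gimap3 were neighbours, with no other interval between them or close by. Their summits were 39.0 kb from each other. Below them, the next Myc-Tag interval was 896 kb away and had a height of 13, and above them the next was 301 kb away, with a height of 14. The median gap between neighbouring autosomal intervals was 190 kb, and 19.6% of the 3434 gaps were longer than the one below and 39.9% longer than the one above. Between these outer intervals lay 30 coding genes, the 8 Gimap genes and 22 others. The flanking genes were Zfp775, a zinc finger gene 111540 bp from the nearest summit, and Tmem176b, which encodes a membrane protein and was 61683 bp away.

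The density of intervals depended on how it was expressed. The window of 223.7 kb with 2 intervals had 0.894 intervals per 100 kb (exact 95% Poisson interval 0.108 to 3.23), against 0.122 on chromosome 6 and 0.136 on the autosomes other than chromosome 15. This was 6.55 times the density of those autosomes (0.794 to 23.7). Coding genes were also denser in the Gimap window, at 4.47 per 100 kb against 0.851. Per 100 coding genes, the window had 20.0 intervals (2.42 to 72.2) and the same autosomes 16.0, a ratio of 1.25 (0.151 to 4.50). The confidence intervals of both ratios include 1, so that 2 Myc-Tag intervals do not set the Gimap window apart on either scale.

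The CpG content of the Gimap promoters was a feature that the choice of genes did not use. CpG dinucleotides are depleted in most of the genome but kept in the CpG islands at the starts of many widely expressed genes, whereas starts of tissue-restricted genes often lack them. The observed over expected ratio is the number of CG steps in a window times its length, divided by the product of its C and G numbers. The ratio ran from 0.104 in Gimap7 to 0.325 in Gimap9 over the 9 Gimap windows, with a median of 0.178. The median over all 32851 windows was 0.384, and 16883 of them were under 0.4, as were all 9 Gimap windows. Among all windows, that of Gimap7 stood at percentile 13.9 and that of Gimap3 at 15.8, whereas Gimap4 was at 36.0, Gimap1 at 36.7, Gimap6 at 40.2 and Gimap9 at 44.7. The Gimap windows were thus below the median but spread widely below it, and their CpG content was not tested against that of other genes. Gimap9 had 8 CG steps in its window, while Gimap1, Gimap4, Gimap5 and Gimap6 had 4 each and Gimap3 and Gimap7 had 2. The windows of Gimap8 had 3 and 2.

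None of the 9 Gimap windows overlapped a Myc-Tag interval, a count of 0 that allows a share of up to 33.3%, beside 7.25% of all windows. That background was not even across CpG content. Among windows with a ratio under 0.2, where Gimap3, Gimap5, Gimap7 and both windows of Gimap8 belong, 0.234% overlapped an interval. From 0.2 to 0.4, the class of Gimap1, Gimap4, Gimap6 and Gimap9, the share was 0.75%. It was 21.7% in windows with a ratio of 0.8 and over. Windows that overlapped an interval had a median ratio of 0.856, which was above that of every Gimap window. The 2 windows of Gimap8 overlap and are not independent of each other. The part of CpG content in the calls at Gimap genes was not tested.

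**Figure D3:**
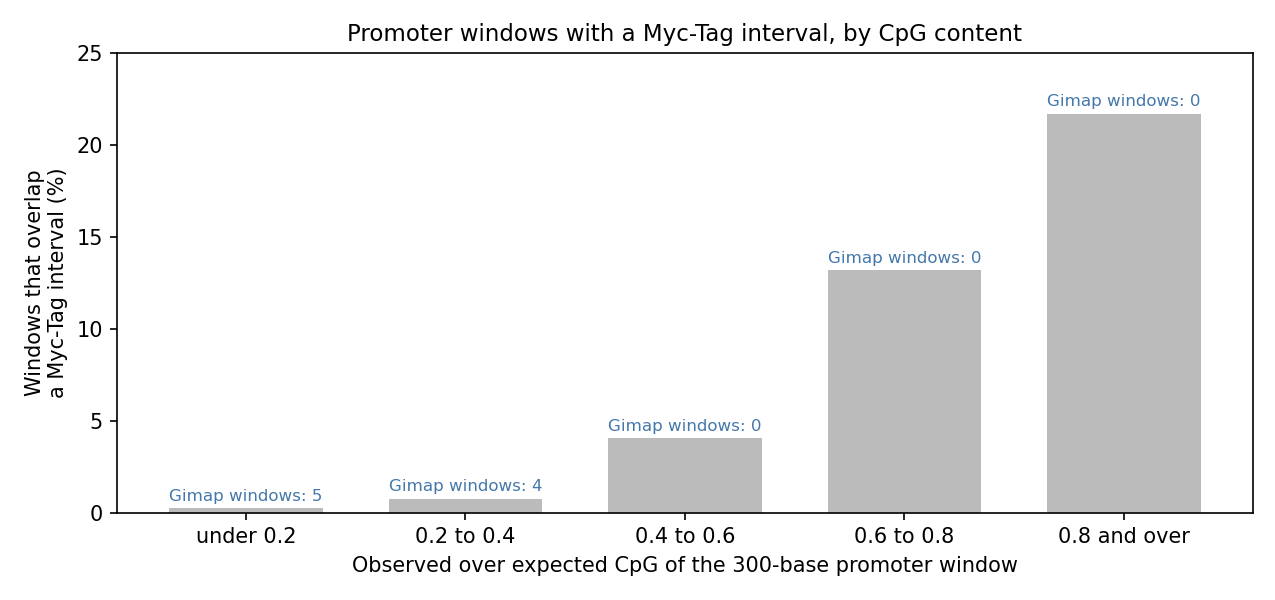
Share of 300-base promoter windows that overlap a Myc-Tag interval (bars, in percent) by their observed over expected CpG ratio, with the number of Gimap windows in each class printed above the bar. All 9 Gimap windows are in the classes under 0.4, where the share is 0.234% and 0.75%, and it rises to 21.7% at 0.8 and over.

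Other gene families were set beside the Gimap genes by the same rule of 10 kb, against the background of 19.0%. The Cd3 genes, which encode signaling chains of the T-cell receptor, also lie side by side. Of these 3, Cd3d and Cd3g had an interval. The summits lay at the gene ends, 119 bp from the end of Cd3d with a height of 15 and 322 bp from that of Cd3g with a height of 10. Both intervals were within 10 kb of both genes. Of the 9 Slam cluster genes, which encode receptors between lymphocytes, Slamf6 and Cd48 had one, and the nearest summit at each lay inside the gene with a height of 16. Among 26 genes of the Klr cluster, which encode natural killer cell receptors and lie on chromosome 6 like the Gimap genes, Klrb1c had one, 1279 bp upstream of its start with a height of 14. Some members of this list carry positions of 149512 and 553984 on chromosome 6, whereas the others begin at 128609227 or above. The Myc-Tag summit nearest to both was at 3201504, and whether an interval could be called at such positions was not checked. Those members count among the 26 as genes without an interval, which limits the count and share of this list. Of 17 interferon-inducible GTPases of other clusters (Gbp and Irg genes), Irgm1 had one, 8285 bp from the gene with a height of 20. The largest of these lists, Klr with 1 of 26 genes (3.85%, 0.0973 to 19.6%), had a confidence interval that overlaps that of the Gimap genes, and the difference between lists was not tested.

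Gimap proteins have been linked to the Bcl2 family of apoptosis regulators. Of 7 genes of this family, 4 had an interval in the body or within 10 kb (57.1%, 18.4 to 90.1%), namely Mcl1 and the death factors Bad, Bax and Bcl2l11. The confidence interval includes the background of 19.0%. Bad had its summit 69 bp from a gene end with a height of 16, and Bcl2l11 522 bp from one with a height of 16. Bax had 2 intervals within 10 kb, and the nearest summit lay 135 bp from a gene end with a height of 10. The summit at Mcl1, a survival factor, had a height of 20 and was inside the gene, 127 bp from an annotated start. Of 9 genes for small GTPases and their regulators in T cells, 6 had an interval (66.7%, 29.9 to 92.5%), beside 19.0% of all coding genes. Here the confidence interval lies above the background. However, this list was chosen with earlier results of these data known. The background was also not matched for the length of its genes, which ran from 5.04 to 557 kb. Among them, the tallest summit height was 19 at Rhoh, 17 at Coro1a, 17 at Rap1a and 16 at Rap1b. In 3 of the 7 Bcl2 family genes and 3 of the 9 small GTPase genes a summit lay within 1 kb of a gene end, against 0 of the 8 Gimap genes and 10.8% of all coding genes. Mcl1 is not among these, since its annotated start lies inside the gene as listed. These lists are short, and the difference between them and the Gimap genes was not tested.

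**Figure D4:**
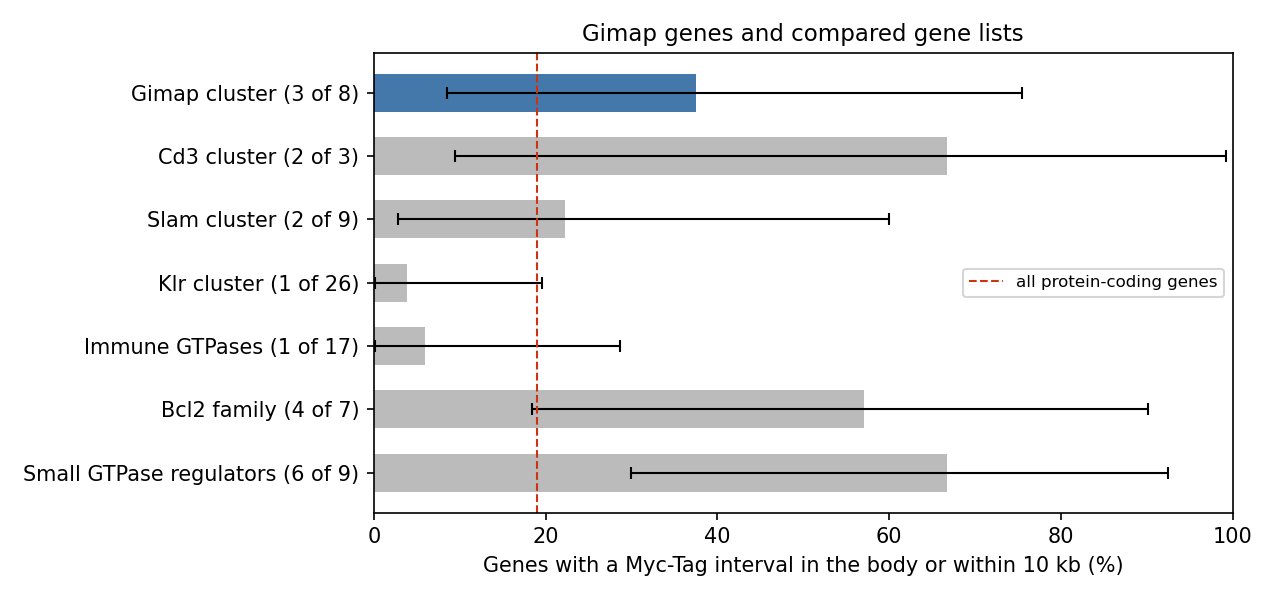
Percent of genes with a Myc-Tag interval in the body or within 10 kb in the Gimap cluster (blue) and in compared lists (grey), with counts beside each name, exact 95% Clopper-Pearson intervals as error bars and the share of all protein-coding genes, 19.0%, as a dashed line. The bar of the Gimap genes is at 37.5%, and its error bar spans the dashed line.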

How the data were processed

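Sequencing (Illumina GA II) and analysis were done by Active Motif, with MACS p-values used for calling. The submitters' processing notes list BWA and mm9, whereas the published browser view shows mm10. On GRCm38, 58.4% of summits lay within 1 kb of a coding gene end, and 8.11% when all were moved by 10 kb, so mm10 was used. The authors deposited intervals and, for each summit, a score, its height, of unstated normalization. The MACS version, threshold and control used in calling are not given in the sources used here. Summit positions were mostly whole multiples of 16 bp (3329 of 3477), so distances are not exact to the base.

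Each interval was joined to its summit and assigned to the gene body nearest to the summit, among all annotated genes. Interval starts are counted from 1. Strand came from the RefSeq promoter table, which held a start for 79.9% of coding genes. The members and the gene lists were chosen with earlier results of these data known. Named genes were the Gimap members, the flanking coding genes and, in each list, genes with an interval, at most 4 by height. The result for 1 planned marker list is not reported here. No p-value was computed. The software was scipy 1.17.1, matplotlib 3.10.9, pandas 2.3.3 and numpy 2.4.6 under Python 3.11.15. The functions were tested on simulated data, in which all 200 genes given an interval were recovered. Alternatives were other distances, windows, height thresholds, overlaps and motifs. The sequence of the intervals was not analysed here.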

Additional observations from a re-analysis of the deposited data

How the results depend on the processing

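Across 25 alternatives for the Gimap results, 13 left the count within a factor of 1.5 or the value within its confidence interval, while 12 did not. Most changes follow from a narrower or wider definition. Without flanks, 1 interval lay in the cluster in place of 2. With heights at or above the median of 16, or at least 19, the 75th percentile, 0 intervals were left in the window and 0 Gimap genes had one, beside 10.7% and 6.05% of all coding genes. In place of 3 genes with an interval, 0 of the 8 had one with the body only, 0 with 1 kb, 1 with 5 kb (Gimap3) and 6 with 50 kb on either side, beside 13.4%, 14.2%, 16.6% and 33.3% of all coding genes. The 6 genes at 50 kb share the same 2 intervals and are not independent of each other. Coding genes are also denser in this window, 4.47 per 100 kb against 0.851, and the background was not matched for this. In place of 0 genes with a summit within 1 kb of an end, 1 had one within 2 kb and 1 within 5 kb, Gimap3 in both, beside 12.3% and 14.7%. With TAATTA or TAATTG in place of TAATT, 0 Gimap windows held the motif, beside 12.4% of all windows. The density relative to the autosomes, 6.55 per kb, was 1.25 per coding gene and 7.15 per kb with intervals closer than 10 kb merged. Both lie inside the interval reported, 0.794 to 23.7. That interval rests on 2 intervals of the window and is too wide to show that the ratio is stable, and the ratio per coding gene is a different measure. The background by gene length and by CpG content, and the lists and runs of genes at 1 kb, were added after seeing the data. At 1 kb, the Klr and immune GTPase counts moved to 0 each, beside 14.2% of all coding genes. Runs of 8 neighbouring genes with no gene reached at 1 kb, as in the Gimap cluster, made up 39.3%.

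No paired analysis was possible because the Myc-Tag ChIP and the input have 1 library each, which also leaves no replicate to omit. Depth limits every statement on a gene without an interval, which is one where none was called.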

Other observations

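Marker genes of blood cell types were looked up as places with or without an interval, since ChIP calls hold no expression. Of 11 T-cell markers, 5 had a Myc-Tag interval in the body or within 10 kb (45.5%, exact Clopper-Pearson 95% interval 16.7 to 76.6%), beside 19.0% of all coding genes. The tallest within 10 kb was at Lck, with a height of 17. The next was that of Cd3d with 15, which was also within 10 kb of Cd3g, while the summit nearest to Cd3g had a height of 10. Cd8b1 had one with a height of 14. Lck encodes the T-cell kinase whose promoter drives the transgene, and its summit lay inside the gene body, 220 bp upstream of an annotated start. Reads from the Lck promoter of the transgene cannot be told apart here from reads of the gene itself. Whether they add to this interval, 1 of the 5 counted, was not tested. Of 5 myeloid markers, 0 had one. This count permits up to 60.0% and is not distinguishable from the background. The difference between these lists was not tested.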
